A study of Homo sapiens with 4 samples.

Results

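The histone genes of the deposited RNA-seq table were described, split into clustered (replication-dependent) and variant (replication-independent) genes. The members were the rows whose gene symbol begins with a histone name (H1-, H2A, H2B, H3-, H3C, H4-, H4C or MACROH2A, or the older HIST names), and 30 of the 13957 genes in the table met this rule. Of these, 15 were clustered genes, 10 were variant genes, 4 were histone pseudogenes and 1, H3-2, was a putative histone gene on chromosome 1 outside the clusters. The symbol alone set the class. Membership also required a row in the table, so histone genes that the table left out have no value here.

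The cells were MDA-MB-231 Fluc, a triple-negative human breast cancer line that carries a luciferase gene for imaging, and all groups share this insertion. The study treated 2 samples with 50 μM cordycepin and 2 samples with the DMSO vehicle, each for 2 h. Cordycepin is 3'-deoxyadenosine, an adenosine analogue that lacks the hydroxyl group to which a growing RNA chain, poly(A) tails included, is extended. The paper calls its triphosphate a chain terminator of polyadenylation. It cites work in which cordycepin did not end pre-mRNA chains in general in intact cells, though transcription of specific mRNAs and of ribosomal RNAs was inhibited. The question that the members bear on is how the histone mRNAs that as a rule have no poly(A) tail compare with those that do. The table held no value for any single library, so each level below is read as the authors' mean over the libraries of both groups. It comes with no SD, no n and no test, and neither an effect of cordycepin nor the spread between samples is reported here.

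Histones H2A, H2B, H3 and H4 form the octamer around which DNA is wound, and H1 binds the linker between octamers. The clustered genes are transcribed in S phase, when new DNA has to be packaged, and most of their mRNAs end just after a conserved stem-loop rather than in a poly(A) tail. The stem-loop is bound by SLBP, and the U7 small nuclear RNA directs the cut behind it. As a rule the variant genes lie outside the clusters, are expressed throughout the cell cycle and make polyadenylated mRNAs. Some of their proteins replace the canonical ones at particular places, such as those of H2AZ1 and H2AZ2 at promoters.

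The 3' end sequences that separate the classes were read from GENCODE release 44 on GRCh38. For each family, the stem-loop of the clustered member with the highest mean log2 CPM is shown first. H3C15 was the only clustered H3 gene in the table. The sequences are in the sense of the mRNA with T for U. Capitals mark the 16 bases of the stem-loop, with 6 base pairs around a loop of 4 bases.

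H1-2, chr6:26055740-26055764, minus strand: caaaaGGCTCTTTTCAGAGCCacca
H2AC6, chr6:26124664-26124689, plus strand: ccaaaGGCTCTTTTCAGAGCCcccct
H2BC12, chr6:27146361-27146386, minus strand: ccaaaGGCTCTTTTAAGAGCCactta
H3C15, chr1:149853100-149853125, plus strand: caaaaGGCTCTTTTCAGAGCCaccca
H4C9, chr6:27139649-27139674, plus strand: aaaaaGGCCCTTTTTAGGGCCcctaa

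Each of these lies in the 3' UTR of an mRNA with a single exon. The stem-loop of H1-2 began 30 bases after the last coding base before the stop codon and that of H2AC6 began 46 bases after it, and over the 15 clustered members this distance ran from 30 to 70 bases, with a median of 44. In 14 of the 15 clustered members the reference transcript ended within 10 bases of the stem-loop.

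The exception was H2BC21, an H2B gene whose reference transcript ran on for 1729 bases past its stem-loop to a poly(A) signal. The variant H2AX had the same arrangement, with a stem-loop 52 bases after its coding region and 1024 further bases to the end of the transcript. Both ends of these genes are given next, because they are the only members with both elements in the reference transcript. Capitals mark the stem-loop or the hexamer of the poly(A) signal.

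H2BC21 stem-loop, chr1:149886183-149886208, minus strand: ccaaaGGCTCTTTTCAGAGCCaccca
H2BC21 poly(A) signal, chr1:149884467-149884492, minus strand: tattgttattAATAAAgttaccaatt
H2AX stem-loop, chr11:119094893-119094918, minus strand: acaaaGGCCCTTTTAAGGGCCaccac
H2AX poly(A) signal, chr11:119093883-119093908, minus strand: gactaattttATTAAAggattgtttt

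For comparison, the poly(A) signals of H3-3B and H2AZ1, the variant members with the highest mean log2 CPM and the highest level per kilobase, are shown with the hexamer in capitals. Neither gene has a stem-loop.

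H3-3B poly(A) signal, chr17:75776438-75776463, minus strand: atgagactaaAATAAAatttttgaag
H2AZ1 poly(A) signal, chr4:99948092-99948117, minus strand: ggataagttcAATAAAggtcatatcc

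A stem-loop was found after the coding region in all 15 clustered members and in 1 of the 10 variant members, H2AX. For this count a stem-loop in any annotated coding transcript was enough. Of 19606 coding genes that are no histone gene, 15, or 0.0765%, had a match to the same pattern. A poly(A) signal, AATAAA or ATTAAA, stood in the last 50 bases of the reference transcript in 8 of the 10 variant members and in 1 of the 15 clustered members, against 78.5% of the other coding genes. The 2 variant members without it, H2AZ2 and MACROH2A1, had it in another annotated transcript. Among the clustered members, H2BC5 also had it in another annotated transcript. With any annotated coding transcript allowed, 84.3% of the other coding genes had it. The stem-loop and the poly(A) signal thus sorted the clustered and variant members almost as the symbols did. In the reference transcript, H2AX and H2BC21 held both, and H2AZ2 and MACROH2A1 held neither. The putative gene H3-2, in neither class, had a stem-loop 3 bases before its transcript end and a poly(A) signal in another annotated transcript.

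The stem arm differed by family. All 15 annotated H4 genes of the clustered class had GGCCCT as the 5' arm, as did H2AX and no other histone gene. The arm GGCTCT was found in 55 annotated genes of the other 4 families, and H2AC15, which was not among the rows of the table, had GGTTCT. Of the 16-base forms, the form printed for H1-2 was the most frequent, in 41 annotated genes and 8 members. The form printed for H2BC12 was found in 10 annotated genes, 2 of them members.

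**Figure D1:**
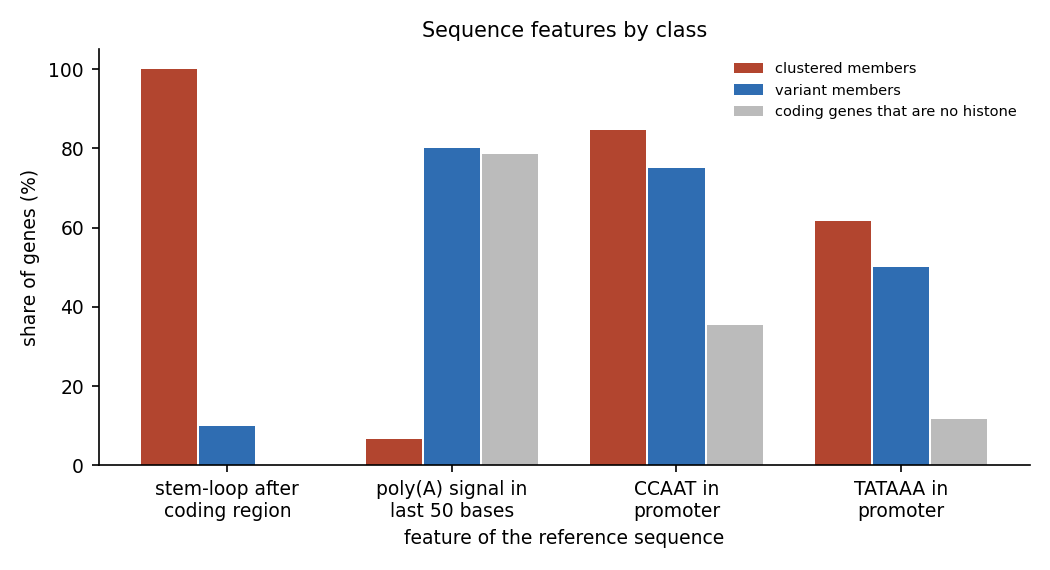
Share of genes (%, vertical axis) with each feature of the reference sequence (horizontal axis) among clustered members, variant members and coding genes that are no histone gene. The stem-loop, searched in every coding transcript, was found in 100% of clustered and 10% of variant members. The poly(A) signal, searched in the reference transcript only, was found in 6.67% and 80%. The grey bar of the stem-loop, at 0.0765%, is too low to be seen.

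Promoters were less different between the classes. The window ran from 250 bases before to 50 bases after the start of transcription in RefSeq on GRCh38, it was found for 21 of the 25 clustered and variant members, and each motif was searched on both strands. CCAAT, the site of the factor NF-Y, was present in 11 of 13 clustered promoters and 6 of 8 variant promoters, against 35.5% of the promoters of other genes. TATAAA, a form of the TATA box, was present in 8 of 13 clustered and 4 of 8 variant promoters, against 11.8% of the others. Of the clustered promoters, those of H1-2, H2BC18 and H4C9 had CCAAT without TATAAA, and those of H4C8 and H4C14 had neither. H4C1, H4C3 and H3-5 were among the members with no entry.

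Among the genes that reached the table, the levels of the classes lay far apart. Only 15 of 70 annotated clustered genes and 10 of 23 annotated variant genes did so. Levels were compared between genes as the mean log2 CPM less the log2 of the deposited gene length in kilobases. The median level per kilobase was 1.97 for the clustered members and 5.71 for the variant members, a difference of -3.74 on the log2 scale, or 13.3-fold. The median of all 13957 genes was 2.43. A total of 6 of the 15 clustered members and 9 of the 10 variant members lay above the median of all genes, which by definition 50% of genes do. The classes overlapped, since 8 clustered members lay above H2AJ, the lowest variant at 1.96, but in 138 of the 150 pairs of a clustered and a variant member the variant was higher. Without division by length the values did not overlap. The mean log2 CPM ran from 1.08 to 3.53 in clustered members and from 3.54 to 8.70 in variant members, with only 0.0088 between H2BC12, the highest clustered member, and H3-5, the lowest variant. The lowest value of any gene in the table was 0.56, and 13 of the 15 clustered members were in the lowest 25% of all genes.

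**Figure D2:**
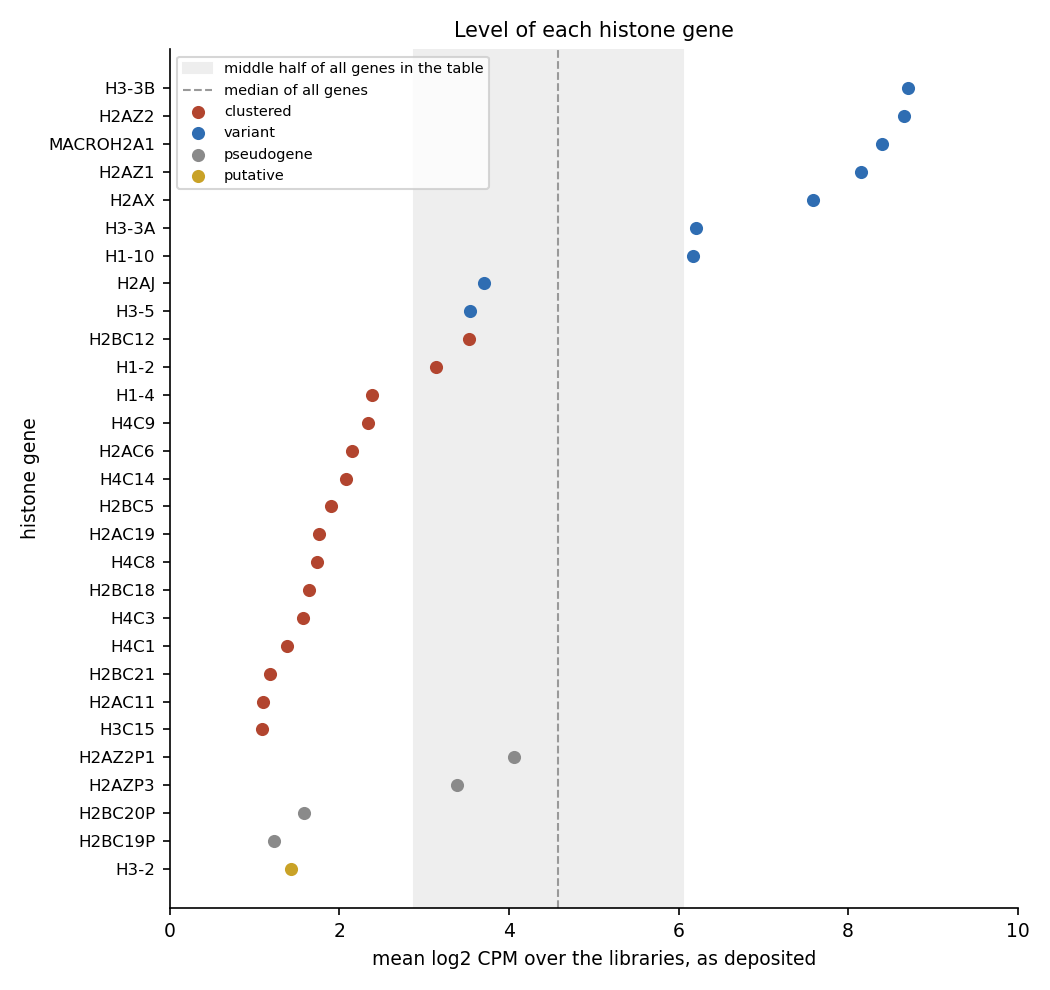
Mean log2 CPM of 29 of the histone genes as deposited (horizontal axis, points coloured by class), with the middle 50% of all genes in the table as a grey band and their median as a dashed line. Of the 9 variant members drawn, 7 lie above the band, and 13 of the 15 clustered members lie below it.

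Within the variant class, H2A variants were at the top of the level per kilobase. H2AZ1, which with H2AZ2 encodes the H2A.Z proteins that mark promoters, had the highest level of all 30 members at 6.97 per kilobase and a mean log2 CPM of 8.15. H2AX, whose phosphorylated form marks DNA breaks, followed at 6.89 per kilobase and 7.58 as deposited. H2AZ2 had the higher mean log2 CPM of the H2A.Z pair, 8.66, but a lower level per kilobase of 5.85, because its deposited length was 7003 bases against 2270 for H2AZ1. The order of this pair therefore turned with the scale. MACROH2A1, an H2A variant with a large extra domain that is enriched on silent chromatin, had a mean log2 CPM of 8.40 and a level of 4.26 per kilobase over 17730 bases. H2AJ, a mammalian H2A variant linked to senescence, was the lowest of the H2A variants on both scales, with a mean log2 CPM of 3.70 and 1.96 per kilobase.

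Among the H3 variants, H3-3B stood above H3-3A, although both encode the same replacement protein. Their mean log2 CPM was 8.70 and 6.20, and their levels per kilobase were 6.09 and 3.87. The coding sequences of the pair differed at 88 of 408 bases (78.4% identity). H3-3A had the lowest share of unique sequence of the variant members, with 79.4% of its 75-base windows found at 1 place in the genome, and H3-3B had 97.8%. H3-5, an intronless H3 gene related in sequence to H3-3B, had a mean log2 CPM of 3.54 and a level of 3.39 per kilobase. Of its windows, 91.5% at 75 bases and 81.5% at 50 bases were found at 1 place. Whether reads of the far higher H3-3B entered the value of H3-5 was not tested. The linker histone variant H1-10 had a mean log2 CPM of 6.17 and a level per kilobase of 5.57. In the table, H3-3B shared bases with UNK, and H1-10 with its antisense gene, each on the opposite strand. The libraries were stranded, and whether the counting used the strand is not given in the sources used here.

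No variant H2B or H4 gene was among the rows of the table, so H2B and H4 were represented by clustered genes and H2B pseudogenes alone. GENCODE release 44 lists 4 variant H2B genes and no variant H4 gene. In all, 10 of 23 annotated variant genes and 15 of 70 annotated clustered genes were in the table.

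Of the clustered H1 genes, H1-2 and H1-4 were present, at a mean log2 CPM of 3.14 and 2.39 and at 3.59 and 2.73 per kilobase. Every 75-base window of both was found at 1 place in the genome, so a read from either could be assigned. Both lay below the linker variant H1-10 on each scale.

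Of the clustered H2A genes, H2AC6 had a mean log2 CPM of 2.15, H2AC19 of 1.76 and H2AC11 of 1.10. Their levels per kilobase were 1.41, 2.58 and -0.07. H2AC19 had no 75-base window at 1 place only, and its annotated neighbour H2AC18, which was not among the rows of the table, had none either. The value of H2AC19 is therefore uncertain. The 3 coding sequences were between 86.2% and 87.4% identical.

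Of the clustered H2B genes, H2BC12 was the highest clustered member on both scales, with a mean log2 CPM of 3.53 and a level of 4.55 per kilobase, which was above 83.4% of all genes. With H2BC12, 61.1% of the 75-base windows but only 42.8% of the 50-base windows were found at 1 place, so its value is less certain. H2BC5 had a mean log2 CPM of 1.91, H2BC18 of 1.63 and H2BC21 of 1.18, at 2.10, -0.04 and 0.05 per kilobase. H2BC18 is uncertain, with 39.2% of its windows at 1 place, while H2BC21 had 95.1%. The H2B coding sequences were more alike than those of H2A or H4, with 89.2% to 94.4% identity over 6 pairs.

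H3C15 was the only clustered H3 gene of the 14 annotated to be in the table, with a mean log2 CPM of 1.08, the lowest of all members, and 0.36 per kilobase. None of its windows was found at 1 place, nor was any of H3C14, its annotated copy. The putative gene H3-2 differed from H3C15 at 17 of 408 coding bases (95.8% identity). H3-2 had a mean log2 CPM of 1.43 and a level of -0.55 per kilobase, with 30.3% of windows at 1 place. The windows of H3C15 came from the 518 bases of its annotated exons, while its deposited length was 1656 bases, so the rest of the counted gene was not checked.

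H4 had the most clustered members, 5 of 15 annotated. H4C9 had a mean log2 CPM of 2.34, H4C14 of 2.07, H4C8 of 1.74, H4C3 of 1.57 and H4C1 of 1.38. Per kilobase the order was different, with H4C3 at 2.88, H4C1 at 2.69, H4C9 at 1.97, H4C14 at 1.17 and H4C8 at 0.62. H4C14 had no window at 1 place, nor had the annotated H4C15, which was not among the rows of the table. The value of H4C14 is therefore uncertain. The other 4 had 100% of their windows at 1 place. These H4 genes encode the same protein, yet their coding sequences were only 79.9% to 86.1% identical over 10 pairs.

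**Figure D3:**
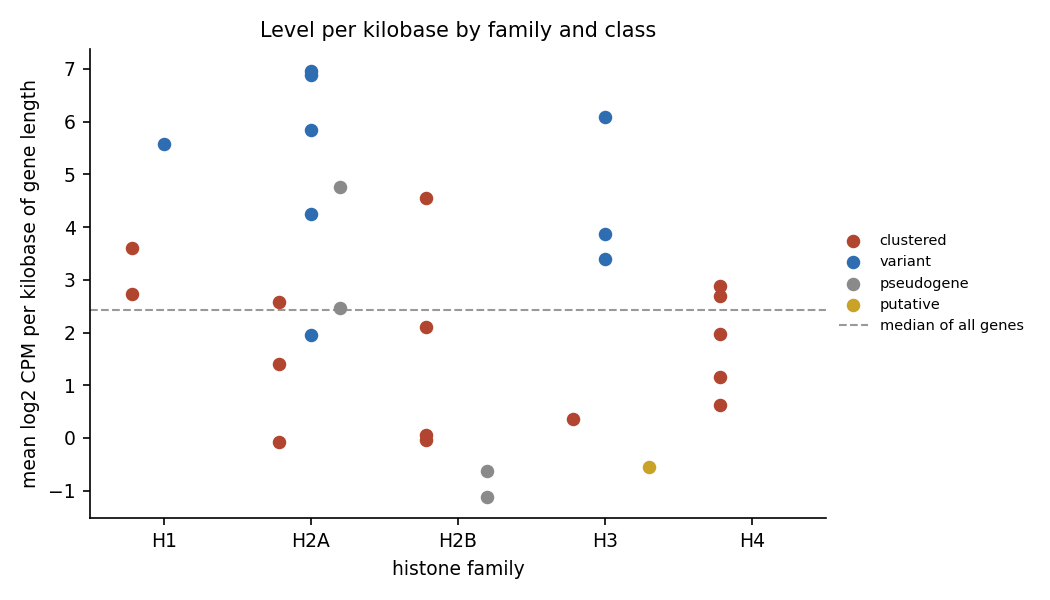
Mean log2 CPM per kilobase of deposited gene length (vertical axis) of 29 members by family (horizontal axis), coloured by class, with the median of all genes (2.43) as a dashed line. The variant members drawn for H1 and H3 lie above every clustered member of their own family, the variant H2AJ lies among the clustered H2A genes, and H2B and H4 hold no variant member.

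By position, 10 clustered members lay in the large cluster on chromosome 6, where 55 genes are annotated between 25723397 and 27893891, and 5 lay in the cluster on chromosome 1, where 11 genes are annotated between 149782689 and 149887965. None of the 3 annotated genes of the second chromosome 1 cluster, near 228424845, was in the table. H4C16, the 1 annotated gene of the clustered class on chromosome 12, was not in it either. The median mean log2 CPM was 2.03 on chromosome 6 and 1.63 on chromosome 1. All 10 members on chromosome 6 had at least 50% of their windows at 1 place, against 1 of 5, H2BC21, on chromosome 1. Over all members this held for 23 of 30, including all 10 variant genes. The windows were cut from the annotated exons, which in H2AC11, H3C15, H4C9, H2BC19P and H2BC20P cover less than 50% of the deposited length. How the authors' counting treated reads with several places is not given in the sources used here.

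The sum of CPM is a share of the counted reads, not of mRNA molecules, since long genes give more fragments. The 30 members summed to 2101 CPM, or 0.209% of the table. The variant members held 2001 CPM and the clustered members most of the small rest, so that clustered genes made up 3.15% of the sum of both classes. Dividing by length raised the clustered share to 12.8%. The 4 members with the highest CPM, H3-3B, H2AZ2, MACROH2A1 and H2AZ1, held 68.7% of the CPM of all members. By family, the clustered share of clustered and variant CPM was 0.801% in H2A and 0.420% in H3. The H2B genes of the clusters summed to 20.7 CPM and those of H4 to 18.2 CPM, while clustered H2A summed to 9.94 CPM and clustered H3 to 2.12 CPM. The sums of the clustered families were thus unequal, and they rest on 4, 5, 3 and 1 genes.

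**Figure D4:**
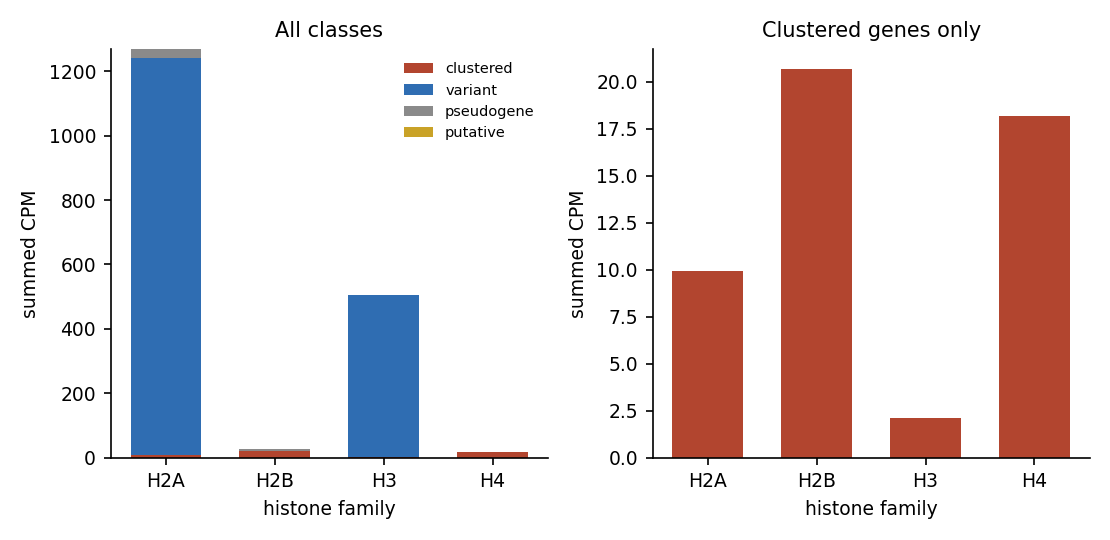
Summed CPM (vertical axes, both from 0) of the members of 4 families (horizontal axes), stacked by class on the left and for clustered genes alone, on a finer axis, on the right. H2A reaches 1268 CPM and H3 507 CPM, nearly all from variant genes, while clustered H2B and H4 reach 20.7 and 18.2 CPM.

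The gene models that the table carries differed among clustered members. In 6 of the 15, namely H1-2, H1-4, H2AC19, H2BC12, H4C1 and H4C3, the deposited gene ended within 35 bases of the stem-loop, and its length was 402 to 787 bases. In the other 9 the deposited gene ran on past the stem-loop, by 212 bases in H4C9 and by up to 29196 bases, introns included, in H2BC18. H2BC18 had a deposited length of 3196 bases against 492 for its reference transcript, and H2AC11 had 2250 against 493. Where the authors counted reads over the deposited genes, reads from beyond the stem-loop were counted to these 9 genes and not to the 6. The 6 had levels per kilobase of 2.58 to 4.55, with a median of 2.80, and the 9 had -0.07 to 2.10, with a median of 0.62. These ranges did not overlap, and the division by the longer length enters this difference directly. As deposited, without that division, the ranges overlapped, at 1.38 to 3.53 with a median of 2.07 for the 6 and at 1.08 to 2.34 with a median of 1.74 for the 9. How many reads fell before and after the stem-loop was not tested.

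**Figure D5:**
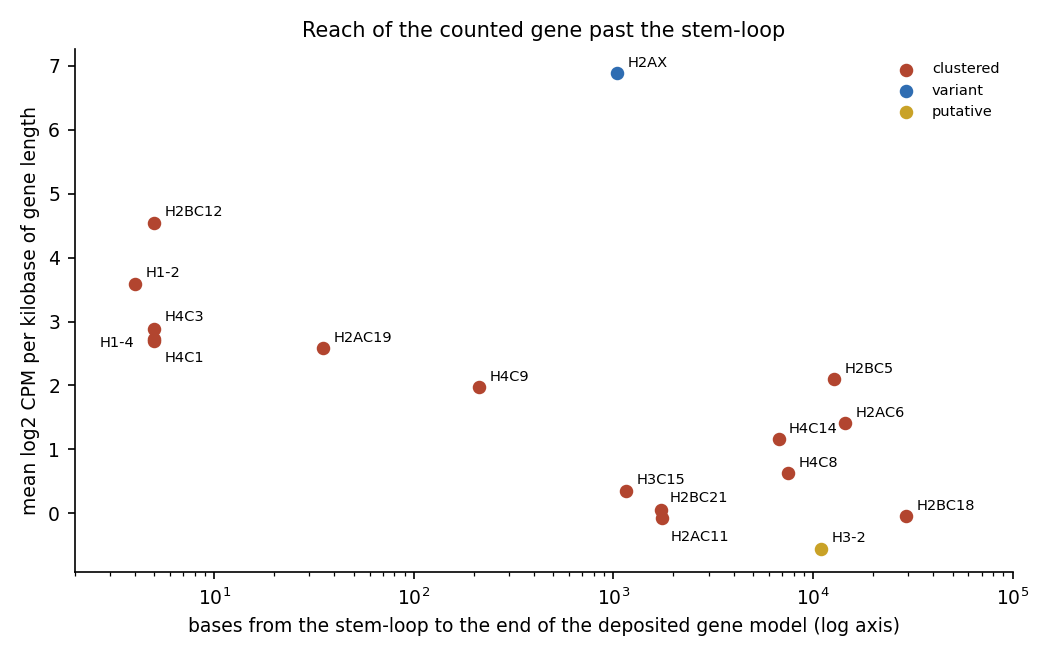
Mean log2 CPM per kilobase (vertical axis) against the number of bases from the stem-loop to the end of the deposited gene (horizontal log axis) for the 17 members with a stem-loop, coloured by class. The 6 clustered members whose gene ends within 35 bases lie at 2.58 or above, the other 9 at 2.10 or below, and H2AX, with 1044 bases past its stem-loop, lies at 6.89.

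The pseudogenes fell into 2 pairs. H2AZ2P1 and H2AZP3, processed copies of H2A.Z genes, had mean log2 CPM values of 4.06 and 3.39 and levels per kilobase of 2.46 and 4.76. At least 98.9% of the windows of each were found at 1 place. H2AZ2P1 shared bases with FAM174B on the same strand and H2AZP3 with UBAC2 on the opposite strand, so their values are uncertain. H2BC19P and H2BC20P, in the chromosome 1 cluster, had 1.23 and 1.58, and their deposited spans overlapped each other on opposite strands. Of the windows of their annotated exons, 5.25% and 21.3% were found at 1 place, but these exons, of 493 and 580 bases, cover only 13.7% and 9.01% of the deposited lengths.

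Genes that act on histones and their mRNAs were described from lists by their level per kilobase. This was set against the median of the clustered members (1.97), above which 58.2% of all genes lay. It was also set against H2BC12, the highest clustered member at 4.55, above which 16.6% of all genes lay. With 61.1% of its 75-base windows at 1 place, H2BC12 is a less certain limit. Of the 12 genes for 3' end processing of histone mRNA in the table, 10 lay above the clustered median and 4 above H2BC12, with a list median of 4.20. SLBP, which binds the stem-loop, was the highest of them at 5.91 per kilobase and had a mean log2 CPM of 6.82. LSM11, a protein of the U7 particle, was the lowest at 0.95 per kilobase and 3.67 as deposited. RNU7-1, the U7 RNA, was not among the rows of the table. Of the 6 genes for histone mRNA decay, 3 lay above the clustered median and 1 above H2BC12, shares near those of all genes. They ran from XRN1, an exonuclease that acts from the 5' end, at 1.16 per kilobase to UPF1, the helicase of nonsense-mediated decay, at 4.64. ERI1, the exonuclease that trims the stem-loop, had 3.06 per kilobase. Of 7 genes for transcription at the clusters, 5 lay above the clustered median and 1 above H2BC12, also near the shares of all genes. They ran from POU2F1, which binds the octamer motif of H2B promoters, at 0.47 to E2F1 at 5.91, and NPAT, the coactivator of the clusters, had 2.09 per kilobase.

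All 16 chaperones of H3 and H4 were in the table, with a median of 3.44 per kilobase, and 14 of them lay above the clustered median but only 2 above H2BC12. They ran from UBN2, a subunit of the complex that deposits replication-independent H3, at -0.20 to ASF1B at 5.50 per kilobase. IPO4, an importin for H3 and H4, was the lowest of the list as deposited, with a mean log2 CPM of 2.19, and NASP the highest at 8.07. All 5 chaperones of H2A and H2B lay above every clustered member, with a median of 5.89, from NAP1L4 at 4.91 to SSRP1 at 6.22 per kilobase. CENPA, the centromeric H3 that the naming rule did not take in, had a mean log2 CPM of 4.56 and its chaperone HJURP 6.52. Of the 10 genes of DNA replication in S phase, all lay above the clustered median and 8 above H2BC12, with a median of 5.94. They ran from POLA1, the catalytic subunit of DNA polymerase alpha, at 4.09 to PCNA, the sliding clamp, at 7.32 per kilobase. In bulk samples such as these, fewer cells in S phase and less RNA per cell cannot be told apart.

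The defining markers of the cell line were checked by mean log2 CPM. VIM, CD44, CAV1 and AXL, which are high in mesenchymal breast lines, ran from 10.25 to 11.01. Of 5 genes low or absent in this line, ESR1 and PGR were not among the rows, CDH1 and EPCAM each had 3.68, and ERBB2 had 6.49, above the median of all genes at 4.58. PTPRC and PECAM1, markers of immune and endothelial cells, were not among the rows either, and COL1A1, a fibroblast marker, had 3.36.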

How the data were processed

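RNA from MDA-MB-231 Fluc cells (2 samples with 50 μM cordycepin and 2 with DMSO, 2 h) was made into stranded, ribo-depleted libraries and sequenced as 75-base read pairs by the authors, who mapped the reads to GRCh38 and counted them with rsubread. The submitters' processing notes name TopHat, HTSeq, DESeq and Cufflinks with no role. The only deposited file is a table of the authors' comparison. Its log2 CPM column, used here, names no sample and is read as 1 mean per gene over the libraries. How that mean was formed is not given in the sources used here. The length column, also used, is in bases. Powers of 2 of the log2 CPM summed to 1005541. Normalization, the filter on low counts and the making of the length are not given in the sources used here. The columns with the authors' log2 fold change, F statistic, p-value and adjusted p-value were not used, nor was the order of the rows. Columns of unmapped samples numbered 0.

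Depth, replicate spread and counting error are unknown, so no test or interval was made. Samples were grouped by the treatment label, but no column separates the groups. The members and lists were chosen with earlier results of these data known. The values of 1 member are not reported here. Every other variant member, and of the clustered members the 3 highest and the 1 lowest in each family, were to be named. The other members were named after their values were seen, as were RNAs without a poly(A) tail.

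Level per kilobase is the mean log2 CPM less log2 of the length divided by 1000 bases. GENCODE release 44 gave exons, coding regions and 1 reference (canonical) transcript per gene, and 29 of 30 members matched by gene ID and H2AC19 by symbol. Windows of 75 bases from the merged exons were looked up on both strands of the genome, with code tested on simulated data. A stem-loop was an arm of GG, 3 pyrimidines and T, a loop of T and 3 bases other than G, and an arm of A, 3 purines and CC, with all 6 positions of the arms paired (G-U allowed). Python 3.11.15, pandas 2.3.3, NumPy 2.4.6 and Matplotlib 3.10.9 were used. Alternatives in length, filter, class, summary and window are given at the end.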

Additional observations from a re-analysis of the deposited data

How the results depend on the processing

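Clustered members were lower than variant members in median level per kilobase under all 8 alternatives tried, 2 of them chosen after seeing the data. The difference of -3.74 on the log2 scale became -5.84 with no division by length and -1.64 with only members above the lowest 25% of all genes, where 2 clustered genes, H2BC12 and H1-2, were left. It was -2.90 with only the 6 clustered members whose gene model ends at the stem-loop, an alternative chosen after seeing the data. The other 5, among them the length of the longest transcript (-3.78), of the reference transcript (-3.82), and members with at least 50% of windows at 1 place (-3.60), moved it by less than 1.5-fold. The clustered share of the summed CPM, 3.15%, became 12.8% per kilobase and 12.5% where the stem-loop set the class, since H2AX then counted as clustered. Without H2AX it was 3.61%. With members whose windows were found at 1 place it was 2.54%. The counts of stem-loops, poly(A) signals and members with unique windows moved from 15 to 14, 8 to 8 and 23 to 22. No paired analysis was possible because the only usable column of levels holds 1 value per gene for all libraries. For the same reason no sample could be left out.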

Other observations

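The libraries were made by removing ribosomal RNA rather than by selecting poly(A) tails, and a few further RNAs without a tail, listed after the data were seen, show what else of this kind the table holds. Of 10 such RNAs, 3 were among its rows. RN7SL1, the RNA of the signal recognition particle, had a mean log2 CPM of 7.91, RNU4-2, a spliceosomal RNA, had 2.81, and RNY1, a Y RNA, had 2.56. Per kilobase these short RNAs, of 299, 141 and 113 bases, stood at 9.65, 5.64 and 5.71, above every clustered histone gene. As deposited, only RN7SL1 lay above every clustered member, so this order turned with the scale. RN7SL2, RN7SK, RMRP, RPPH1, TERC, RNU7-1 and RNY3 were not among the rows. Their part in the levels of the clustered histone genes was not tested.

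Uniqueness and length were also counted for the clustered genes that were not in the table. Of the 15 annotated clustered genes in the table, 11 had at least 50% of their windows at 1 place, as had 47 of the 55 that were not among its rows. Merged exons longer than 1000 bases in GENCODE release 44 were found in 5 of the 15, or 33.3%, and in 11 of the 55, or 20%. By the deposited length, which exists only for genes in the table, 8 of the 15 were longer than 1000 bases. These are counts with no test.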
